A study of Saccharomyces cerevisiae with 15 samples.

Results

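The 8 genes described here lie beside the chromosomal loci that were altered to make the mutant strains of a stranded RNA-seq study of the yeast H3K4 methyltransferase Set1 and the H3K4 demethylase Jhd2. *TOM71*, *ORC6*, *MSH1* and *LSM12* flank *SET1*, *STE24* and *ILM1* lie on the downstream side of *JHD2*, and *GEA2* and *TIM9* flank *URA3*, the locus that took up the overexpression constructs. They were picked by position, as the rows that carry these symbols in the sense and antisense count tables, and not by their counts, although earlier results of these data were known when they were picked. All 8 are among the 5712 features of the sense table and the 5122 features of the antisense table. Of these, 5619 sense and 2640 antisense features had enough reads to be tested, with all 8 members on the sense strand and 5 of the 8 on the antisense strand.

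The 15 libraries came from 5 strains, each grown as 3 independent cultures to mid-log phase in YPAD, a rich glucose medium. Every strain was Mat a and lacked both chromosomal copies of the H2A and H2B genes (hta1-htb1Δ hta2-htb2Δ), which were supplied by *HTA1-HTB1* on a CEN *HIS3* plasmid, and carried lys2-128δ, a *his3* deletion and ura3-52. The mutants were *set1Δ*, in which KanMX replaced *SET1*, *jhd2Δ*, in which KanMX replaced *JHD2*, a strain with the dominant hyperactive allele *SET1-G990E* as ADH1p-FlagSET1G990E::URA3, and a strain with unaltered *SET1* as ADH1p-FlagSET1::URA3. The WT strain, HTABWT, has none of these alterations. It is the direct parent of *set1Δ* and of both overexpression strains. The *jhd2Δ* strain was instead made in the parent of HTABWT and took up its histone plasmid in a separate step. Both overexpression strains keep the chromosomal *SET1* gene and carry in addition a Flag-tagged copy driven by the strong *ADH1* promoter, on an integrating plasmid aimed at *URA3*. Each genotype is a single strain, so a change due to the replaced locus, to the lost or added enzyme and to the isolate itself cannot be told apart from one strain alone, and the WT cultures are shared by all 4 comparisons with WT.

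Set1 is the catalytic subunit of COMPASS, which places methyl groups on lysine 4 of histone H3 behind the start of transcribed genes, and Jhd2 removes them. Yeast genes are packed closely, and neighbours often share the short DNA between them as a common promoter region when they are divergent, or as a common terminator region when they converge. A gene replacement leaves the neighbours in place but puts a marker gene, with a promoter and terminator of its own, next to them. In the paper, the fragments that replaced *SET1* and *JHD2* also held DNA from each side of the gene, amplified from other deletion strains. That DNA was longer than the gaps to *ORC6*, *MSH1* and *ILM1*, and whether it altered their sequence was not tested. Counts at the flanking genes therefore show what was read beside the altered DNA in the strain that carries it and in the strains that do not.

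On chromosome VIII (sacCer3, the same assembly as RefSeq R64) *SET1* spans 346043 to 349285 on the plus strand. *ORC6* (YHR118C, 344321 to 345628, minus strand) is divergent from it, with 414 bp between the coding sequences. *TOM71* (YHR117W, 342349 to 344268, plus strand) converges on *ORC6* with a gap of 52 bp. Downstream of *SET1* lie *MSH1* (YHR120W, 349574 to 352453) after 288 bp and *LSM12* (YHR121W, 352756 to 353319) after a further 302 bp, both read from the plus strand. On chromosome X, *JHD2* (644304 to 646490, minus strand) is followed in its own direction by *ILM1* (YJR118C, 643490 to 644101, minus strand) after 202 bp, and *STE24* (YJR117W, 642007 to 643368, plus strand) converges on *ILM1* with 121 bp between them. On chromosome V, *GEA2* (YEL022W, 111421 to 115800), *URA3* (116167 to 116970) and *TIM9* (YEL020W-A, 117211 to 117474) are in tandem on the plus strand, with gaps of 366 and 240 bp. These spans are the coding sequences, so reads that fall only in an untranslated end were not counted.

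The altered genes read as their labels say. Values are given as normalized counts, raw counts scaled to a common library size. *SET1* averaged 42.4 ± 8.07 in *set1Δ*, 923 ± 53.5 in *jhd2Δ*, 38161 ± 1678 in *SET1-G990E*, 41141 ± 345 in *SET1* overexpression and 834 ± 44.6 in WT (SD, n = 3 cultures in each strain). *JHD2* had 0, 0 and 2 raw counts in the 3 *jhd2Δ* cultures, against 198, 173 and 169 in WT. *URA3* averaged 1208 ± 81.5 in *SET1-G990E* and 1219 ± 42.9 in *SET1* overexpression, against 214 ± 50.6 in WT, where the ura3-52 allele is still transcribed. The small residue of *SET1* reads in *set1Δ* was 46, 33 and 35 raw sense counts, with 0, 0 and 0 antisense counts, and its source was not tested. WT had 1.58 antisense per 100 sense *SET1* counts. At that ratio so few sense counts would bring hardly any antisense counts, so the 0 counts say little about the residue. Sense counts summed to between 6903094 and 8947346 per library and antisense counts to between 72664 and 106762, so the antisense values below rest on far fewer reads. Of 4 markers of each mating type, the Mat a genes had 352 to 636 (*MFA1*), 1100 to 1792 (*MFA2*), 2715 to 6120 (*STE2*) and 854 to 1731 (*BAR1*) raw sense counts over the 15 libraries. The Mat alpha genes had 4 to 27 (*MF(ALPHA)1*), 4 to 21 (*MF(ALPHA)2*), 43 to 98 (*STE3*) and 239 to 387 (*SAG1*), so that *SAG1* overlapped *MFA1*. In *set1Δ*, *STE2* (-0.68) and *BAR1* (-0.60) were called lower and *MF(ALPHA)1* (1.58) and *MF(ALPHA)2* (1.13) higher, as log2 fold changes against WT. *MF(ALPHA)2* was also called higher in *SET1-G990E* (1.25) and *STE3* lower in *SET1* overexpression (-0.62), and the part of these genes in the results below was not tested.

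The upstream regions of *ORC6* and *MSH1* are shown because each begins in the DNA that separates the gene from *SET1*, and these were the members with the largest sense changes. Each run holds 250 bases before and 50 bases after the first base of the coding sequence in RefSeq R64, 5′ to 3′ on the gene's own strand, at chrVIII:345579-345878 (minus strand) for *ORC6* and chrVIII:349324-349623 (plus strand) for *MSH1*. Capitals mark the start codon, runs of at least 7 A or T, and, in *MSH1*, the SCB letters named next.
ORC6: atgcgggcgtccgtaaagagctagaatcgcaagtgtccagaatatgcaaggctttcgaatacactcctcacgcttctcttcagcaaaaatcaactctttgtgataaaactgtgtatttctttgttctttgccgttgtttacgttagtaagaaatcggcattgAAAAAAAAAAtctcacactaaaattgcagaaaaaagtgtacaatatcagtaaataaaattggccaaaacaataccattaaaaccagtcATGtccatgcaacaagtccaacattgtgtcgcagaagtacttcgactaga
MSH1: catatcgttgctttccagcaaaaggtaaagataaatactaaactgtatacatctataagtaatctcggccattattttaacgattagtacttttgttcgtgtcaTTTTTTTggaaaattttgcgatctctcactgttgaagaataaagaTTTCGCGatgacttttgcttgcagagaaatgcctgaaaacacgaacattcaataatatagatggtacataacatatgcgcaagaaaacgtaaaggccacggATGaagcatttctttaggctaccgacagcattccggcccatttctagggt
Exact matches were looked for on both strands. The letters CGCGAAA, a form of the SCB element read by the cell cycle factor SBF, were the only form of it looked for. They occurred once in the *MSH1* window, on the opposite strand, and not in that of *ORC6*. They were found in 3.67% of 5610 windows of this length before yeast open reading frames. Neither window held ACGCGT (MCB, 3.21% of windows), TTACCCG (Reb1, 7.47%) or TATAAA (44.5%). A run of at least 7 A or T, a sequence common in yeast promoters that disfavours nucleosomes, was present in both, as in 51.2% of windows. In *ORC6* that run was 10 bases long and ended 79 bases before the start codon. A match is a description of the letters, and no match says only that they are not in this window. The windows are those of the reference genome, and the sequence of the strains themselves was not read.

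Calls needed a change of 1.5-fold or more and a p under 0.05 in edgeR's quasi-likelihood test, after Benjamini-Hochberg adjustment over all transcripts tested. On the sense strand *ORC6* was the 1 member of 8 called in *set1Δ*, where 8.58% of all tested transcripts were called. In *jhd2Δ*, *MSH1* was the 1 member of 8 called, against 12.2% of all transcripts. In edgeR and in DESeq2 alike, 0 of 8 were called in either overexpression strain, against 12.0% of all transcripts in *SET1-G990E* and 7.69% in *SET1* overexpression, with 4 members at an unadjusted p under 0.05 in *SET1-G990E* and 2 in *SET1* overexpression. At an adjusted p under 0.05 and any fold, 4 of 8 members passed in *set1Δ* (3 higher, 1 lower) where 42.3% of all transcripts did, 4 of 8 in *jhd2Δ* (2 higher, 2 lower) against 44.9%, 2 of 8 in *SET1-G990E* (both higher) against 44.7%, and 1 of 8 in *SET1* overexpression (higher) against 34.8%. With 8 genes, these shares are not set apart from those of transcripts in general. Their median log2 fold change was -0.013 in *set1Δ*, 0.087 in *jhd2Δ*, 0.012 in *SET1-G990E* and 0.014 in *SET1* overexpression, beside medians over all transcripts of 0.00075 in *set1Δ*, -0.011 in *jhd2Δ*, -0.010 in *SET1-G990E* and -0.0078 in *SET1* overexpression.

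*ORC6*, which encodes the smallest subunit of the origin recognition complex that marks replication origins and recruits the licensing factor Cdt1, stood apart in *set1Δ*. Its normalized sense counts were 448, 429 and 442 in the 3 *set1Δ* cultures, against 191, 181 and 166 in the 3 WT cultures. The groups did not overlap, and the lowest *set1Δ* culture was above every culture of every other strain. The log2 fold change in *set1Δ* was 1.30 (SE 0.08, adjusted p = 1.57e-09), a 2.45-fold higher level, which was number 35 from the highest among 5619 transcripts. The other mutants, which keep *SET1* at its own locus, had 198, 228 and 208 in *jhd2Δ*, 207, 204 and 216 in *SET1-G990E* and 198, 210.3 and 206 in *SET1* overexpression. All 9 of these cultures were above the 3 WT cultures, by a small margin. Their log2 fold changes were 0.24 (SE 0.08, adjusted p = 0.0235) in *jhd2Δ*, 0.22 (SE 0.08, adjusted p = 0.0330) in *SET1-G990E* and 0.19 (SE 0.08, adjusted p = 0.0813) in *SET1* overexpression, and those of *jhd2Δ* and *SET1-G990E* had an adjusted p over 0.05 without WT replicate 3 and in DESeq2, among others. Set directly against the other mutants, *set1Δ* was higher by 1.06 (SE 0.07, adjusted p = 1.10e-08) on the log2 scale than *jhd2Δ*, in a comparison that called 1 of 8 members and 8.31% of all transcripts. Against the mean of the other 3 mutants it was higher by 1.08 (SE 0.06, adjusted p = 1.36e-10), with 1 of 8 members and 7.78% of all transcripts called. Over 21 alternative analyses the *set1Δ* fold change against WT stayed between 1.25 and 1.34.

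**Figure D1:**
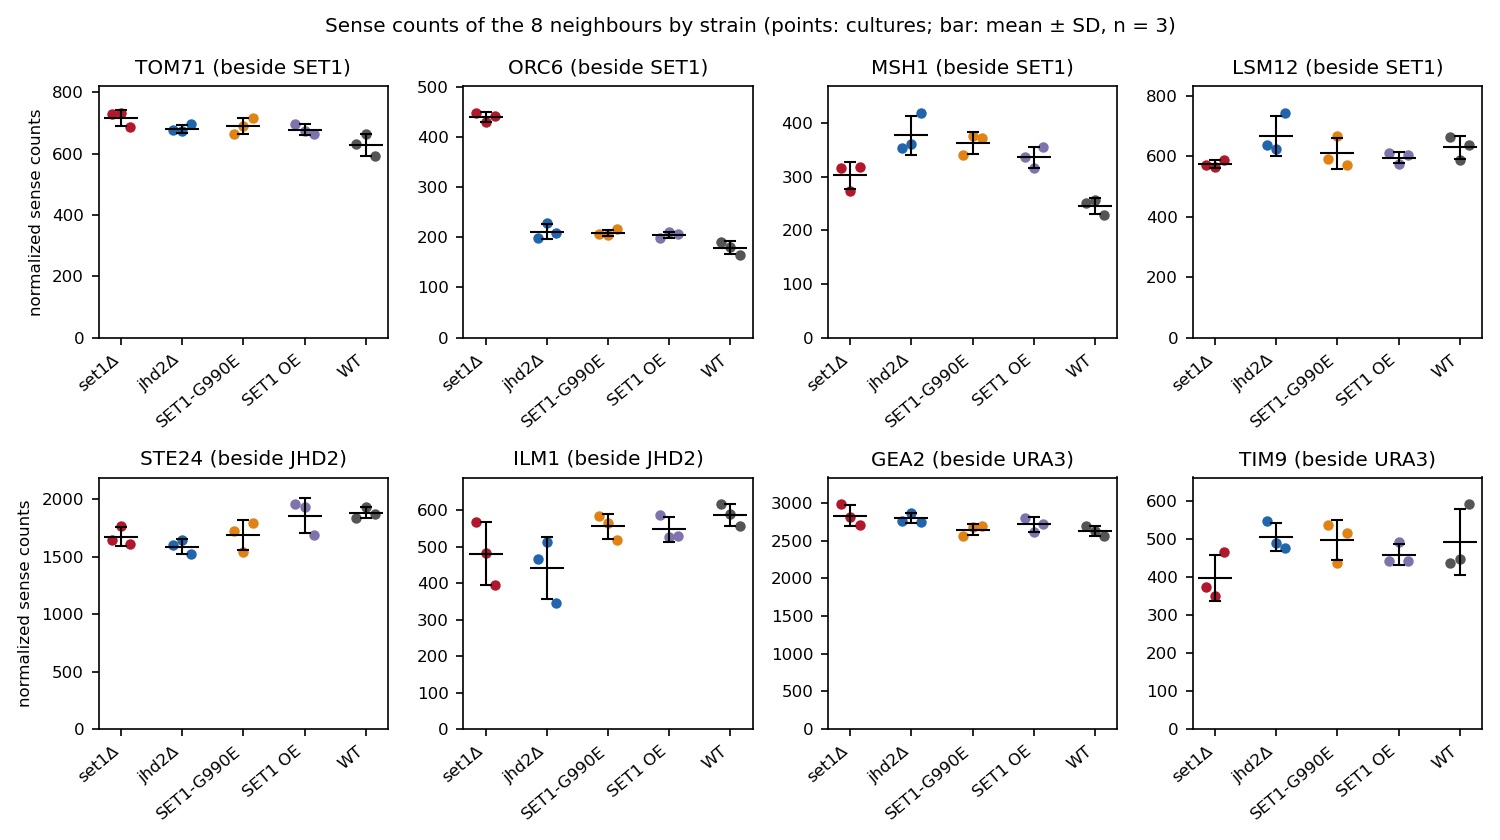
Normalized sense counts (vertical axes, from 0) of the 8 neighbours in each culture (points) of *set1Δ*, *jhd2Δ*, *SET1-G990E*, *SET1* overexpression (SET1 OE) and WT, with the mean ± SD (n = 3) in black. *ORC6* lies between 429 and 448 in *set1Δ*, above all other cultures, while the WT cultures are the lowest for *MSH1*.

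*MSH1*, on the other side of *SET1*, encodes the mitochondrial homologue of the bacterial mismatch protein MutS and guards mitochondrial DNA. It was higher in all 4 mutants. Normalized sense counts were 317, 273 and 318 in *set1Δ*, 352, 360.5 and 419 in *jhd2Δ*, 340.0, 377 and 372 in *SET1-G990E* and 337, 316 and 356 in *SET1* overexpression, against 250.3, 257 and 229 in WT. Every mutant culture was above every WT culture, and *set1Δ*, the strain in which the adjoining gene was replaced, was the lowest of the 4 mutants on average. The log2 fold changes against WT were 0.30 (SE 0.09, adjusted p = 0.0122) in *set1Δ*, 0.62 (SE 0.09, adjusted p = 1.30e-05) in *jhd2Δ*, 0.56 (SE 0.09, adjusted p = 3.70e-05) in *SET1-G990E* and 0.46 (SE 0.09, adjusted p = 0.000557) in *SET1* overexpression. In *jhd2Δ* alone the change passed 1.5-fold, and without *jhd2Δ* replicate 3 it was 0.54 and no longer did. The change in *set1Δ* had an adjusted p over 0.05 without *set1Δ* replicate 1 or 3. Set against *jhd2Δ*, *set1Δ* was lower, with a log2 difference of -0.32 (SE 0.09, adjusted p = 0.00721), which is past the test and under 1.5-fold. In that comparison 4 of 8 members passed at any fold, *ORC6*, *MSH1*, *LSM12* and *TIM9*, where 40.2% of all transcripts did.

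*TOM71*, a receptor of the mitochondrial outer membrane that takes in precursor proteins, had 731, 733 and 686 normalized sense counts in *set1Δ*, against 633, 663 and 592 in WT. The *set1Δ* cultures were all above the WT cultures, with a log2 fold change of 0.19 (SE 0.06, adjusted p = 0.0169). Over the alternatives the adjusted p ranged from 0.0107 to 0.0664. It was over 0.05 without *set1Δ* replicate 1, *set1Δ* replicate 2 or WT replicate 3. The other 3 mutants had log2 fold changes of 0.12 in *jhd2Δ*, 0.13 in *SET1-G990E* and 0.11 in *SET1* overexpression, which missed the test. *LSM12*, whose product binds RNA and joins the Pbp1 complex on ribosomes, had 569, 563 and 587 in *set1Δ*, against 664, 587 and 636 in WT. The highest *set1Δ* culture and the lowest WT culture were at nearly the same value, and the log2 fold change of -0.13 (SE 0.08, adjusted p = 0.179) missed the test. Between -0.08 in *SET1* overexpression and 0.09 in *jhd2Δ*, *LSM12* did not pass the test in the other mutants either.

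Beside *JHD2*, both neighbours were lower in *jhd2Δ*, by less than 1.5-fold. *ILM1*, named for the increased loss of mitochondrial DNA in its mutants, is the gene that *JHD2* reads towards. It had 467, 512 and 346 normalized sense counts in *jhd2Δ*, against 616, 589 and 558 in WT. The groups did not overlap, and *jhd2Δ* replicate 3 was well below its sisters. The log2 fold change was -0.41 (SE 0.12, adjusted p = 0.0105), and -0.26 (adjusted p = 0.0708) without that culture, which is past neither limit. In *set1Δ*, where the *JHD2* locus is intact, *ILM1* had 567, 482 and 395 and a log2 fold change of -0.29 (SE 0.12, adjusted p = 0.0680), with 1 of the 3 cultures inside the WT range. The difference between *set1Δ* and *jhd2Δ* was 0.12 (SE 0.13, adjusted p = 0.459). *STE24*, the zinc protease that trims the pheromone a-factor and other prenylated proteins, had 1601, 1640.0 and 1519.8 in *jhd2Δ*, against 1835, 1930.0 and 1873 in WT. All 3 *jhd2Δ* cultures were below the WT cultures, with a log2 fold change of -0.24 (SE 0.07, adjusted p = 0.00632). In *set1Δ* it had 1643, 1767 and 1612, also below WT in each culture, and the log2 fold change of -0.17 (SE 0.07, adjusted p = 0.0544) missed the test. So did that of -0.16 (SE 0.07, adjusted p = 0.0667) in *SET1-G990E*, where 1725, 1543 and 1795 were again below every WT culture. Against the mean of the other 3 mutants, *jhd2Δ* had 0 of 8 members called by edgeR or DESeq2 and 5 at an unadjusted p under 0.05, where 1.30% of all transcripts were called. *ILM1* was at -0.26 (adjusted p = 0.0980) and *STE24* at -0.13 (adjusted p = 0.122) in that comparison.

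Beside *URA3*, neither neighbour passed the test in the strains that took up the constructs. *GEA2*, an exchange factor that switches on the small GTPase Arf at the Golgi, had 2566, 2689 and 2692 normalized sense counts in *SET1-G990E* and 2808, 2617 and 2727 in *SET1* overexpression, against 2700.5, 2631 and 2568 in WT. The ranges overlapped in both strains, and the log2 fold changes were 0.01 (SE 0.05, adjusted p = 0.915) in *SET1-G990E* and 0.05 (SE 0.05, adjusted p = 0.540) in *SET1* overexpression. *TIM9*, a small chaperone of the mitochondrial intermembrane space that escorts membrane proteins with Tim10, had 537, 436 and 516 in *SET1-G990E* and 441, 491 and 442 in *SET1* overexpression, against 435, 446 and 589.9 in WT. WT replicate 3 was the highest *TIM9* value of all cultures, and both strains lay within the WT range. The log2 fold changes were 0.02 (SE 0.12, adjusted p = 0.932) in *SET1-G990E* and -0.10 (SE 0.12, adjusted p = 0.559) in *SET1* overexpression. The difference between the 2 overexpression strains was called by edgeR or DESeq2 for 0 of the 8 members, with 0 at an unadjusted p under 0.05, and for 0.231% of all transcripts. *TIM9* was instead lower in *set1Δ*, with 374, 349.6 and 465 and a log2 fold change of -0.31 (SE 0.12, adjusted p = 0.0494). Replicate 3 of *set1Δ* was inside the WT range, and the adjusted p ranged from 0.0120 to 0.339 over the alternatives. Without WT replicate 3 the log2 fold change was -0.14, and 11 of the 15 fits that left out 1 culture missed the test.

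**Figure D2:**
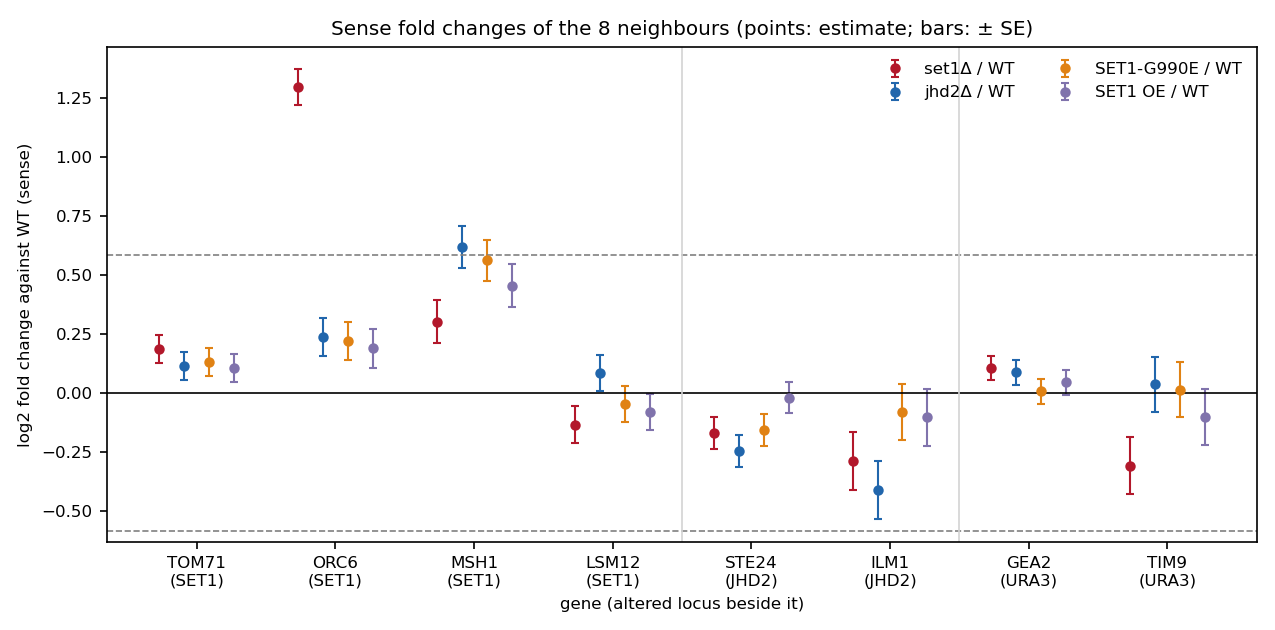
Log2 fold change against WT on the sense strand (vertical axis; points, edgeR estimate; bars, ± SE) of the 8 neighbours, with the altered locus in brackets, in *set1Δ*, *jhd2Δ*, *SET1-G990E* and *SET1* overexpression (SET1 OE). Dashed lines mark 1.5-fold, which *ORC6* in *set1Δ* (1.30) and *MSH1* in *jhd2Δ* (0.62) exceed.

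The neighbourhood was then read out to 20 kb on each side of the altered genes. Around *SET1*, 2 of 24 tested sense features were called higher and 0 lower in *set1Δ*, with a median log2 fold change of 0.034, where 8.58% of all transcripts were called in either direction. These were *ORC6* and *ANS1* (0.79, 10.4 kb away), and none of the features between them was called. Around *JHD2*, 1 of 25 was called higher and 2 lower in *jhd2Δ*, with a median of -0.21, where 12.2% of all were called. *NNF1* (0.80) and YJR115W (-0.996) were also called in *set1Δ* and *SET1-G990E*, where *JHD2* is intact, and YJR115W in *SET1* overexpression (-1.28) too. *STR2* (-0.60) lay 18.7 kb away and was also lower in *SET1-G990E*, by less than 1.5-fold (-0.49, adjusted p = 0.000129). *DMO1*, the gene divergent from *JHD2*, missed the test in *jhd2Δ* with a log2 value of 0.27. Around *URA3*, 2 of 20 were called lower and 0 higher in *SET1-G990E*, and likewise in *SET1* overexpression, where 12.0% of all transcripts were called in *SET1-G990E* and 7.69% in *SET1* overexpression. With 20 to 25 features each, these counts are not set apart from the shares of all transcripts. The 2 genes around *URA3* were *RIP1* (-0.83 in *SET1-G990E* and -0.65 in *SET1* overexpression) and *GLC3* (-1.55 and -1.56 in the same strains). Both were called in *jhd2Δ* too (-0.64 and -1.48), and *GLC3* also in *set1Δ* (-1.05). Beside the members, the RNase P RNA gene *RPR1*, next to *TIM9*, was lower in *set1Δ* (-0.94, adjusted p = 2.37e-06), *jhd2Δ* (-0.55, adjusted p = 0.000315) and *SET1* overexpression (-0.30, adjusted p = 0.0361), and past 1.5-fold in *set1Δ* alone. In *SET1-G990E* its log2 value was -0.21 (adjusted p = 0.125). *CIA2*, next to *LSM12*, had 0.50 in *set1Δ*, 0.41 in *jhd2Δ* and 0.26 in *SET1* overexpression, each past the test and under 1.5-fold, and 0.23 (adjusted p = 0.0547) in *SET1-G990E*.

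**Figure D3:**
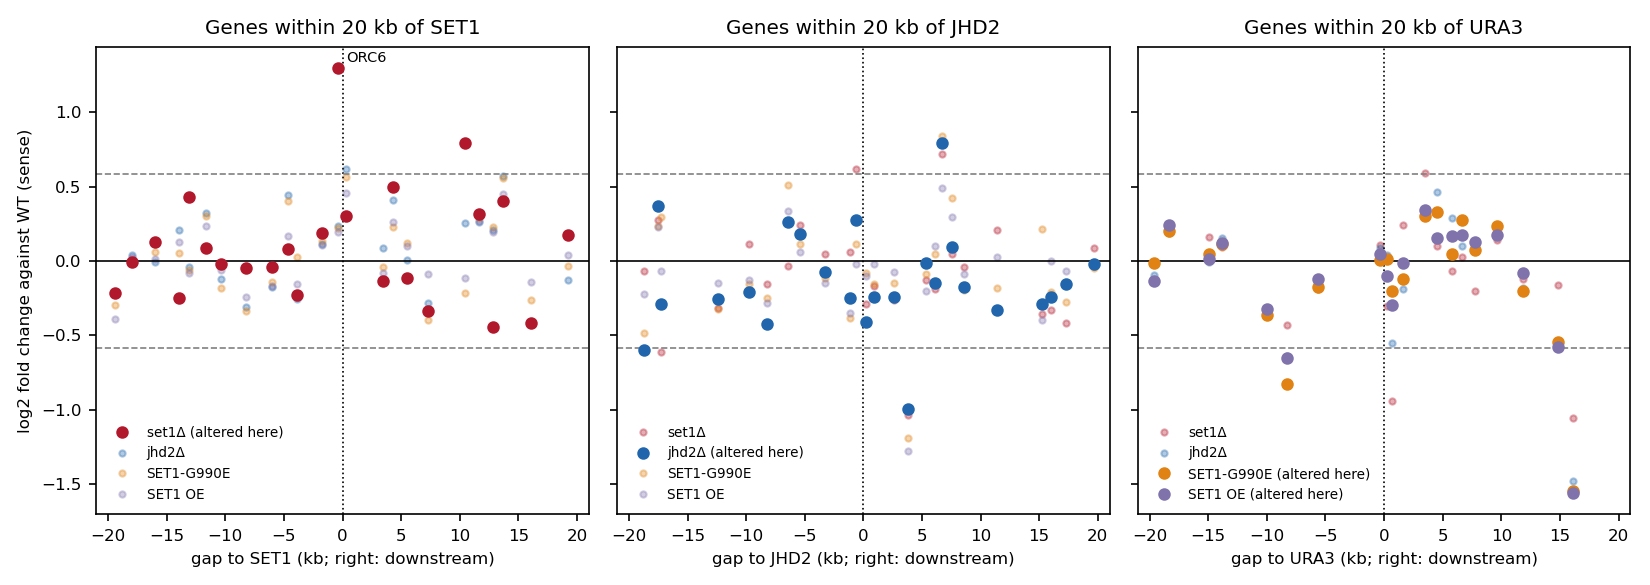
Log2 fold change against WT on the sense strand (vertical axis) of the features within 20 kb of *SET1* (left), *JHD2* (middle) and *URA3* (right), set out by the gap to that gene in kb (horizontal axis, positive downstream of it). Large points are the strain altered at that locus and small points the other mutants; dashed lines mark 1.5-fold. *ORC6* at 1.30 in *set1Δ* is the only member beyond the dashed lines in the strain altered beside it.

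Antisense reads over the members were few, and 3 of the 8 were too low to test. *LSM12*, *STE24* and *TIM9* summed to between 0 and 25 raw antisense counts over the 3 cultures of any strain. Of the 5 tested, *TOM71* and *GEA2* were called higher in *set1Δ*, where 12.4% of all antisense transcripts were called in either direction. In edgeR and in DESeq2, 0 of 5 were called in *jhd2Δ* (6.21% of all), *SET1-G990E* (6.74%) or *SET1* overexpression (3.52%), with 1 member at an unadjusted p under 0.05 in *jhd2Δ* and 0 in the other strains.

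Over *TOM71*, raw antisense counts were 25, 29 and 29 in *set1Δ*, 17, 15 and 19 in *jhd2Δ*, 10, 14 and 10 in *SET1-G990E* and 7, 13 and 8 in *SET1* overexpression, against 14, 14 and 15 in WT. Normalized, they averaged 35.5 ± 1.97 in *set1Δ* and 13.3 ± 0.590 in WT (SD, n = 3 each), and the lowest *set1Δ* culture was above every culture of the other strains. The log2 fold change in *set1Δ* was 1.41 (SE 0.27, adjusted p = 3.51e-05). Against *jhd2Δ* the difference was 1.04 (SE 0.26, adjusted p = 0.00193), with 1 of 5 members and 13.7% of all antisense transcripts called, and against the mean of the other 3 mutants it was 1.60 (SE 0.23, adjusted p = 4.73e-09), with 2 of 5 members and 16.5% called. The mean of the 2 overexpression strains lay below that of the 2 deletions by a log2 difference of -1.36 (SE 0.22, adjusted p = 6.94e-07), in a comparison with 2 of 5 members and 7.35% of antisense transcripts called. On the sense strand the same comparison called 0 of the 8 members in edgeR and DESeq2 (3 at an unadjusted p under 0.05) and 2.72% of all transcripts. *ORC6* had -0.56 there (SE 0.05, adjusted p = 6.56e-07). *jhd2Δ* did not share that difference, since *ORC6* averaged 440 in *set1Δ*, 211 in *jhd2Δ*, 209 in *SET1-G990E* and 205 in *SET1* overexpression. Antisense counts over *TOM71* averaged 17.2 in *jhd2Δ*, 9.54 in *SET1-G990E* and 9.69 in *SET1* overexpression, and *jhd2Δ* was not called against WT.

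Antisense reads over *TOM71* come from the strand that is read as *ORC6*, and *ORC6* is transcribed towards *TOM71* across the 52 bp between them. The ratio of the 2 was therefore taken within each library, a step chosen after the values were seen. There were 6.27, 7.59 and 7.18 antisense *TOM71* counts per 100 sense *ORC6* counts in *set1Δ*, 8.59, 6.36 and 8.84 in *jhd2Δ*, 4.46, 5.93 and 4.48 in *SET1-G990E* and 3.72, 7.03 and 3.79 in *SET1* overexpression, against 7.29, 7.33 and 8.62 in WT. In *set1Δ* the ratio of 7.01 ± 0.678 overlapped that of WT, 7.75 ± 0.757 (SD, n = 3 each; two-sided exact permutation p = 0.4, where the smallest possible is 0.1), while both counts that form it were higher. In the overexpression strains it was below every WT culture, with p = 0.1 in each by the same exact test. Per 100 sense counts of *TOM71* itself, antisense counts averaged 4.31 ± 0.415 in *set1Δ* and 2.21 ± 0.206 in WT. Counts per gene do not show whether the reads over *TOM71* belong to the same RNA as *ORC6*, which was not tested. The other convergent pair, *ILM1* and *STE24*, had 1.97 ± 0.996 antisense *STE24* counts per 100 sense *ILM1* counts in *jhd2Δ* and 1.03 ± 0.386 in WT, with an exact permutation p of 0.2.

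**Figure D4:**
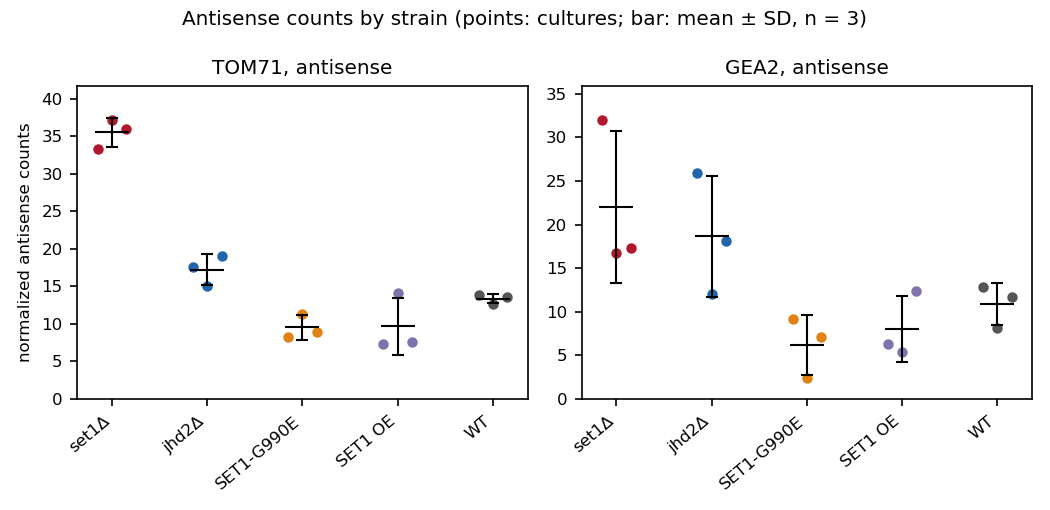
Normalized antisense counts (vertical axes, from 0) over *TOM71* (left) and *GEA2* (right) in each culture (points) of *set1Δ*, *jhd2Δ*, *SET1-G990E*, *SET1* overexpression (SET1 OE) and WT, with the mean ± SD (n = 3) in black. The *set1Δ* cultures average 35.5 over *TOM71* and stand clear of the rest, while over *GEA2* they average 22.0 and overlap with *jhd2Δ*.

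Over *GEA2*, raw antisense counts were 24, 13 and 14 in *set1Δ*, 25, 12 and 18 in *jhd2Δ*, 11, 3 and 8 in *SET1-G990E* and 6, 5 and 13 in *SET1* overexpression, against 13, 9 and 13 in WT. Replicate 1 was the highest in both deletions, and in normalized counts *set1Δ* did not overlap WT (22.0 ± 8.67 against 10.9 ± 2.45). The log2 fold change in *set1Δ* was 1.00 (SE 0.34, adjusted p = 0.0303). It was 0.64 (adjusted p = 0.355) without *set1Δ* replicate 1, 0.82 (adjusted p = 0.142) without WT replicate 2, 1.06 (adjusted p = 0.0523) without WT replicate 3, and 1.02 (adjusted p = 0.181) in DESeq2, so the call rests on single cultures. Against the mean of the other 3 mutants *set1Δ* was higher by 1.14 (SE 0.29, adjusted p = 0.00121), and by 0.79 (adjusted p = 0.114) without *set1Δ* replicate 1. In the comparison of *jhd2Δ* with the mean of the other 3 mutants, *GEA2* was higher by 0.83 (SE 0.28, adjusted p = 0.0462), 1 of 5 members called where 4.24% of antisense transcripts were. That call was lost in DESeq2 and without *jhd2Δ* replicate 1 (0.53) or 3, *set1Δ* replicate 2 or 3, *SET1-G990E* replicate 2, or *SET1* overexpression replicate 1 or 2. The direct difference between *set1Δ* and *jhd2Δ* was 0.23 (SE 0.31, adjusted p = 0.683) and missed the test. The 2 overexpression strains together were below the 2 deletions by a log2 difference of -1.48 (SE 0.26, adjusted p = 6.30e-06). Per 100 sense *GEA2* counts, antisense counts averaged only 0.663 in *set1Δ*, 0.646 in *jhd2Δ*, 0.260 in *SET1-G990E*, 0.302 in *SET1* overexpression and 0.429 in WT. Whether any of these reads came from sense RNA was not tested. *URA3*, the gene beside *GEA2*, had antisense log2 fold changes against WT of 0.67 in *SET1-G990E*, 0.80 in *SET1* overexpression and 0.51 in *jhd2Δ*. The last was not called (adjusted p = 0.0789). Both overexpression strains carry an added *URA3*, and which copy these reads came from was not tested. *ORC6*, *MSH1* and *ILM1* passed the antisense test in no mutant against WT, with log2 values between -0.14 and 0.81.

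Levels of the 8 genes were set beside each other per kb of coding length. In WT, *TIM9* was at 1857 ± 328 normalized counts per kb, *STE24* at 1379.9 ± 35.1, *LSM12* at 1115 ± 69.0, *ILM1* at 960.2 ± 48.1, *GEA2* at 601 ± 15.2, *TOM71* at 328 ± 18.6, *ORC6* at 137 ± 9.97 and *MSH1* at 85.2 ± 4.97 (SD, n = 3 cultures). Each step down this order was larger than the SDs of the pair added together. In *set1Δ*, *ORC6* reached 336 ± 7.29 per kb, close to *TOM71* at 373 ± 14.0 in the same cultures, and the order of the 8 genes was the same. There *TIM9* (1501 ± 231) and *STE24* (1229 ± 60.3), and *ILM1* (787 ± 140.3) and *GEA2* (648 ± 31.2), did not differ beyond their added SDs. In bulk RNA, fewer cells that express a gene and less RNA in each cell cannot be told apart.

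Genes that work with the members were read from lists, to set the members beside genes of like function elsewhere in the genome. The counts below stand beside 8.58% of all transcripts called in *set1Δ*, 12.2% in *jhd2Δ*, 12.0% in *SET1-G990E* and 7.69% in *SET1* overexpression, and nothing particular to a list is read from them. Among 13 origin licensing genes, *MCM5* alone was called in *set1Δ* (log2 fold change 0.59), and the median was 0.051 there, 0.27 in *jhd2Δ*, 0.21 in *SET1-G990E* and 0.22 in *SET1* overexpression. In *jhd2Δ*, 0 of the 13 were called in edgeR or DESeq2 and 9 had an unadjusted p under 0.05. *TAH11*, which encodes Cdt1, was called higher in *SET1-G990E* (0.68) and in *SET1* overexpression (0.64). Of 9 mismatch repair genes, *PMS1* was called higher in *set1Δ* (0.65) and, in edgeR and DESeq2, 0 in *jhd2Δ*, *SET1-G990E* or *SET1* overexpression, where 5, 3 and 4 in that order had an unadjusted p under 0.05. The medians were 0.14 in *set1Δ*, 0.20 in *jhd2Δ*, 0.16 in *SET1-G990E* and 0.13 in *SET1* overexpression. In edgeR and in DESeq2, 0 of 8 genes of mitochondrial DNA maintenance, 10 of outer membrane import, 4 of the Pbp1 complex, 9 of prenylated protein maturation or 8 Arf factors were called in any mutant, with 21 of these 39 genes at an unadjusted p under 0.05 in *set1Δ*, 12 in *jhd2Δ*, 10 in *SET1-G990E* and 8 in *SET1* overexpression, and the medians of these lists lay between -0.10 and 0.10. Among 7 genes of inner membrane import, *TIM12*, a small Tim protein of the carrier translocase, was called higher in *set1Δ* (0.77) and *jhd2Δ* (0.82), and 0 of the 7 in edgeR or DESeq2 in *SET1-G990E* or *SET1* overexpression, with 3 at an unadjusted p under 0.05 in *SET1-G990E* and 0 in *SET1* overexpression.

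The genes whose fold changes in the 4 mutants were most like those of *ORC6* and *MSH1* were found by the root mean square of the differences in log2 fold change over the 4 comparisons with WT. For *ORC6* the nearest were *PDH1*, with a difference of 0.188 and a log2 fold change of 0.96 in *set1Δ*, and *GPN2*, with 0.208 and 0.99. For *MSH1* they were *HPM1* (0.0294) and *MAK21* (0.0361), with log2 fold changes in *jhd2Δ* of 0.61 and 0.66. The nearest match to *ORC6* was thus farther off than that to *MSH1*. Few transcripts changed as much as *ORC6* in *set1Δ*, where it was number 35 of 5619, so this distance is not separate from its rank.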

How the data were processed

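RNA was depleted of ribosomal RNA and sequenced as stranded libraries from 15 cultures, 3 of each of 5 strains. Alignment by the authors used Novoalign 2.8.1 and sacCer3, and they deposited raw counts, per gene and strand, of alignments that overlap a gene by at least 1 bp. The deposited tables also hold FPKM values, regularized log2 values, log2 ratios and scores from the authors' own comparisons, and none of these were used. Coordinates of 5587 of 5607 named sense features equal those of RefSeq R64, from which the promoter sequences were read. Reads shared by near-identical genes were not separated, and reads of the KanMX cassette were not analysed here.

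The tools were edgeR 4.0.16 and DESeq2 1.42.0 under R 4.3.3, with Python 3.11.15 for summaries. Each strand was scaled by TMM and filtered with filterByExpr (min.count 10), and all 15 libraries entered one quasi-likelihood fit (glmQLFit, glmQLFTest) with a mean per strain. P-values were adjusted by Benjamini-Hochberg over all tested transcripts of the strand. The SE of a log2 fold change was derived as its absolute value divided by the square root of the F statistic of its test. Biological coefficients of variation were 0.067 (sense) and 0.080 (antisense). Exact permutation tests were two-sided.

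Genes were named as the 8 members, the altered genes, called features within 20 kb, directly adjoining features, called genes of partner lists and the 2 genes nearest in pattern to *ORC6* and to *MSH1*. The members and lists were chosen with earlier results of these data known. Alternatives were DESeq2, its size factors in edgeR, no filter, a strict filter, only the strains compared, the replicate number as a block, antisense counts scaled by sense library sizes, and each culture left out.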

Additional observations from a re-analysis of the deposited data

Results flagged for a closer look

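Values that set mutants against each other are listed because the change differed between strains by a direct test in edgeR. *ORC6* on the sense strand was higher in *set1Δ* than in *jhd2Δ* by 1.06 and than in the mean of the other 3 mutants by 1.08 on the log2 scale, with all 3 *set1Δ* cultures above the 9 others. Antisense counts over *TOM71* differed in the same direction, by 1.04 against *jhd2Δ* and 1.60 against the other 3 mutants. The overexpression strains differed from the deletions by -1.36, where normalized counts averaged 35.5 in *set1Δ* and 17.2 in *jhd2Δ*. Antisense counts over *GEA2* were higher by 1.14 in *set1Δ* and by 0.83 in *jhd2Δ*, each against the mean of its other 3 mutants. Both of these calls were lost in some alternatives, and *set1Δ* and *jhd2Δ* differed from each other by only 0.23 (adjusted p = 0.683 in edgeR). Between the overexpression strains and the deletions, *GEA2* differed by -1.48. In *set1Δ* the replaced locus, the absent enzyme and the single isolate cannot be told apart.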

How the results depend on the processing

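Of 117 values for the members, 2410 of 2429 recomputed under the alternatives stayed on their side of the call, 17 called values were lost, 2 became calls and 0 called values changed sign. A sign change between 2 uncalled values was counted as no change, and there were 56 of these in 30 results. The call of *ORC6* on the sense strand in *set1Δ* held in every alternative run. That of *TOM71* on the antisense strand in *set1Δ* held in every run that tested it, with log2 fold changes between 1.15 and 1.45. Its antisense counts were too low for the strict filter, so it was not tested there. *MSH1* in *SET1-G990E* became a call without *SET1-G990E* replicate 1 (0.61) or WT replicate 2 (0.62). The antisense call of *GEA2* in *set1Δ* was also lost when the sense library sizes set the scaling (0.74). The totals over all antisense transcripts, which give the background shares, depended on the tool and the filter, and the cause was not tested. Against WT, *set1Δ* had 328 calls in edgeR, 160 in DESeq2 and 86 under the strict filter of 50 counts in 3 libraries. The same counts were 164, 69 and 62 in *jhd2Δ*, 178, 91 and 66 in *SET1-G990E*, and 93, 37 and 43 in *SET1* overexpression. They were 362, 172 and 97 for *set1Δ* against *jhd2Δ*, 436, 244 and 95 for *set1Δ* and 112, 39 and 24 for *jhd2Δ* against the other 3 mutants, and 194, 90 and 38 for the overexpression strains against the deletions, where scaling by the sense library sizes gave 324. Between *SET1-G990E* and *SET1* overexpression there were 22, with 9 in DESeq2 and 40 with that scaling. Leaving out single cultures gave 53 to 94 calls for *SET1* overexpression, 58 to 114 for *jhd2Δ* against the other 3 mutants and 8 to 24 between the overexpression strains, and on the sense strand 6 to 17 between the overexpression strains, where the full fit had 13.

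Replicate numbers were not treated as pairs in the main fit, by a strict rule that every correlation of deviations between same-numbered cultures be over 0.1. Failing this rule does not show that same-numbered cultures shared no effect. On the sense strand these correlations ran between -0.23 and 0.34, with a median of 0.11 and 16 of 30 over 0.1. Cultures with different numbers had a median of -0.035 and 17 of 60 over 0.1. On the antisense strand 0 of 30 same-numbered and 0 of 60 other pairs were over 0.1. With the replicate number as a block, *ORC6* in *set1Δ* had a log2 fold change of 1.30 and *set1Δ* had 487 sense calls against 482 without it. In 9 of 15 libraries on the sense strand and 10 of 15 on the antisense strand the closest partner carried the same number, which 4 of the 12 libraries of other strains do for each library.

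Raw antisense counts over the members were at most 29 in a library, so small differences were not detectable at this depth, and with 3 cultures in each of 2 strains a two-sided exact test on one value cannot go below p = 0.1.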

Other observations

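Antisense reads over *SET1* were most numerous in the strains with an added copy. They came to 86, 82 and 85 raw counts in *SET1-G990E* and 70, 52 and 71 in *SET1* overexpression, against 13, 16 and 12 in WT. Per 100 sense *SET1* counts these were 0.203 ± 0.00758 in *SET1-G990E* and 0.164 ± 0.0178 in *SET1* overexpression, against 1.58 ± 0.162 in WT (SD, n = 3 each). Raw *URA3* antisense counts were 28, 26 and 27 in *set1Δ* and 54, 56 and 51 in *jhd2Δ*, against 28, 48 and 47 in WT. These 3 strains all carry ura3-52 without an added *URA3*. Normalized for depth, they averaged 34.7 ± 2.28 in *set1Δ*, 54.4 ± 2.72 in *jhd2Δ* and 37.8 ± 8.85 in WT. In edgeR neither deletion was called against WT, with log2 fold changes of -0.13 (adjusted p = 0.777) in *set1Δ* and 0.51 (adjusted p = 0.0789) in *jhd2Δ*. The direct difference between *set1Δ* and *jhd2Δ* was called, at -0.65 (adjusted p = 0.0198).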
